A study of Mus musculus with 15 samples.

Results

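Whole mouse gut in which the plakoglobin gene Jup was low was set against cultured gut epithelium in which Jup was also low. The tissue side is the 3 gut libraries described as PG_KO, and the culture side is the 3 Tamoxifen organoid libraries, so that 6 of the 15 bulk RNA sequencing libraries of the study enter. Members were taken by their column names from the 2 deposited read count tables, which were joined on gene ID. All 45905 genes were present in both. Tissue and table change together here: the organoid libraries stand in one table and the gut libraries in the other, so preparation or sequencing of each set cannot be told apart from the tissue. Of the 2 groups only the organoids are named for Tamoxifen, so drug exposure cannot be told apart from the tissue either.

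The gut PG_KO libraries carry the codes T47, T48 and T56, which the labels do not explain. Their titles name DSS colitis (dextran sulfate sodium, a detergent-like sugar polymer that injures the colon when given in drinking water) and floxed Jup alleles, JUPfl/fl, but no Cre. The gut ctr libraries, by contrast, have the inducible villin Cre, iVilCre ERT2, in their titles. The Tamoxifen organoids are titled with both the Cre and the floxed alleles, and all 3 carry one code, T41, so that the labels do not show separate mice or lines. Villin Cre ERT2 is a Cre recombinase driven by the villin promoter, active in intestinal epithelium and switched on by tamoxifen, and cells of the muscle, connective tissue, vessels, nerves and immune system keep an intact Jup. No label states the gut segment, the mouse ages or the doses, and beyond the DSS in the PG_KO titles none says whether the ctr animals received it. Floxed Jup is shared by all groups used here, including nativ organoids of code T75 and gut ctr, which serve as a second pair of gut and organoids. Because no label says that replicates are separate animals or cultures, the p-values below measure only the spread between these libraries. That spread may be technical in the organoids and between gut replicates 1 and 2. Sex-linked genes, given below, set gut replicate 3 apart, so the gut libraries do not all come from the same animal.

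Plakoglobin is a close relative of beta-catenin that binds desmosomal and classical cadherins and ties them to the cytoskeleton. Intestinal organoids grow from epithelial stem cells in a matrix gel and consist of epithelium alone, with crypt-like and villus-like parts, fed by added growth factors. Whole gut adds the lamina propria, muscle, vessels, enteric nerves and immune cells. Small intestine and colon also differ in their epithelium: villi with absorptive enterocytes and Paneth cells mark the former, and water and salt absorbing colonocytes the latter.

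Depth was similar on both sides, with 25262205 to 30744563 reads assigned to genes in the 6 libraries. Between 23578 and 24198 genes had at least 1 read in the gut libraries and between 21159 and 21526 in the organoids. Levels are given as CPM, the reads of a gene scaled by the assigned reads of its library, on which scale 3 reads correspond to 0.0976 to 0.119 CPM. Tissue libraries varied more: the median SD of log2(CPM + 1) over the 3 libraries was 0.214 in gut, over 15490 genes averaging 1 CPM or more, and 0.0572 in the organoids, over 13836 such genes. Gut PG_KO replicate 3 stood apart in sex-linked genes. It had Xist, the RNA of the inactive X chromosome, at 384.4 CPM, against 0.106 and 0 CPM in replicates 1 and 2 and at most 0.107 CPM in the organoids. Ddx3y, a gene of the Y chromosome, was at 28.2, 24.8 and 0 CPM in the gut libraries in replicate order and at 42.3, 40.6 and 38.2 CPM in the organoids. Counts below are therefore also given without replicate 3 where they differ by over 1.5 times, and values of the single gut libraries are shown for the genes on which the results turn.

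Jup itself stood at nearly the same level on both sides. Its level was 75.2, 82.8 and 80.3 CPM in gut PG_KO and 69.0, 70.9 and 71.2 CPM in Tamoxifen organoids. Each gut library lay slightly above each organoid library. The log2 difference, gut minus organoid, was 0.08 (SE 0.06), with an edgeR adjusted p of 0.263, and the exact two-sided permutation test over the 6 libraries gave p = 0.1, the smallest it can give. Scaled to epithelial genes instead of to all genes, the difference was -0.09 with an adjusted p of 0.454. The gene lies on the minus strand of chromosome 11 (chr11:100368856-100397839, GRCm38.p6). Jup averaged 390.3 ± 97.4 CPM (SD, n = 3) in gut ctr and 352 ± 67.2 CPM (SD, n = 3) in nativ organoids, and all 6 of those libraries lay above every library of the low-Jup pair. Within the low-Jup pair, fewer cells with intact Jup and less Jup RNA per cell cannot be told apart in bulk RNA, and the same holds for every gene below.

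**Figure D1:**
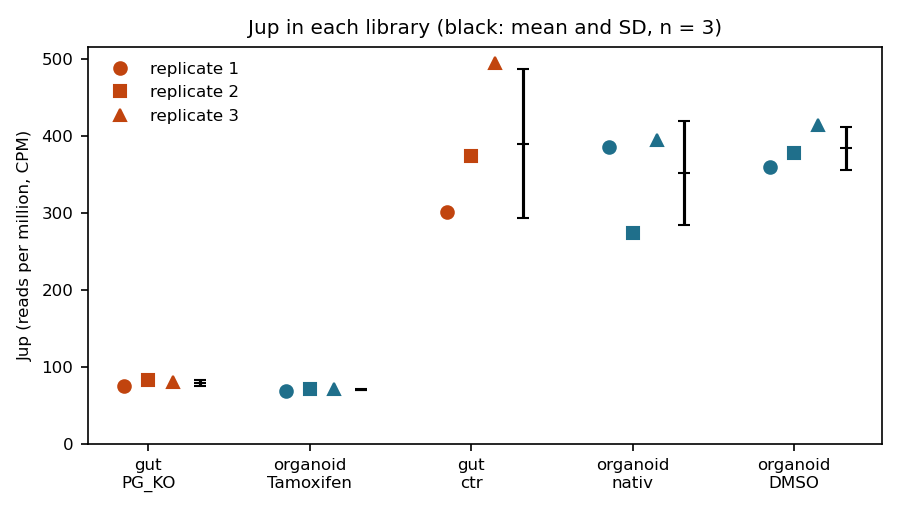
Jup level (CPM, linear axis from 0) in each library of the 5 groups, with the mean and SD over 3 libraries in black. The gut PG_KO and organoid Tamoxifen libraries lie between 69.0 and 82.8 CPM, below all libraries of the other 3 groups.

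Most of the transcriptome differed between tissue and culture. Of 17839 genes tested with edgeR's quasi-likelihood test, 12060 (67.6%) passed a Benjamini-Hochberg adjusted p of 0.05, of which 6575 (36.9% of tested genes) were higher in gut and 5485 (30.7%) lower. A difference over 2-fold together with that p was met by 6828 genes (38.3%). For 13218 genes (74.1%) the 3 gut libraries did not overlap the 3 organoid libraries. With shares this high, a single called gene says little, and the gene lists below are read against these backgrounds and against the median log2 difference of all tested genes, 0.06. With epithelial scaling that median was -0.11 and the share of calls that were higher in gut fell from 54.5% to 45.5%. Library totals alone gave 59.9%. Predicted genes, antigen receptor segments and defensin copies left aside, the largest differences among protein-coding genes of at least 5 CPM were immune and muscle genes on the gut side (Tgtp2, Gbp5, Il1b, Actg2, Lsp1, Mmp13, Serpina3g, Clec4e, Ccl2 and Adamdec1). On the organoid side they were mostly absorptive, secretory and drug-metabolising genes (Cyp2c29, Akp3, Apoa4, Gimd1, Apoa1, Sis, Itln1, Fabp1, Cyp2b10 and Cyp3a11). Cyp2b10 averaged 268.9 CPM in Tamoxifen organoids and 7.44 CPM in nativ organoids, and Cyp3a11 104.6 and 0.058 CPM. Gut region, drug exposure and organoid code cannot be told apart for these genes.

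**Figure D2:**
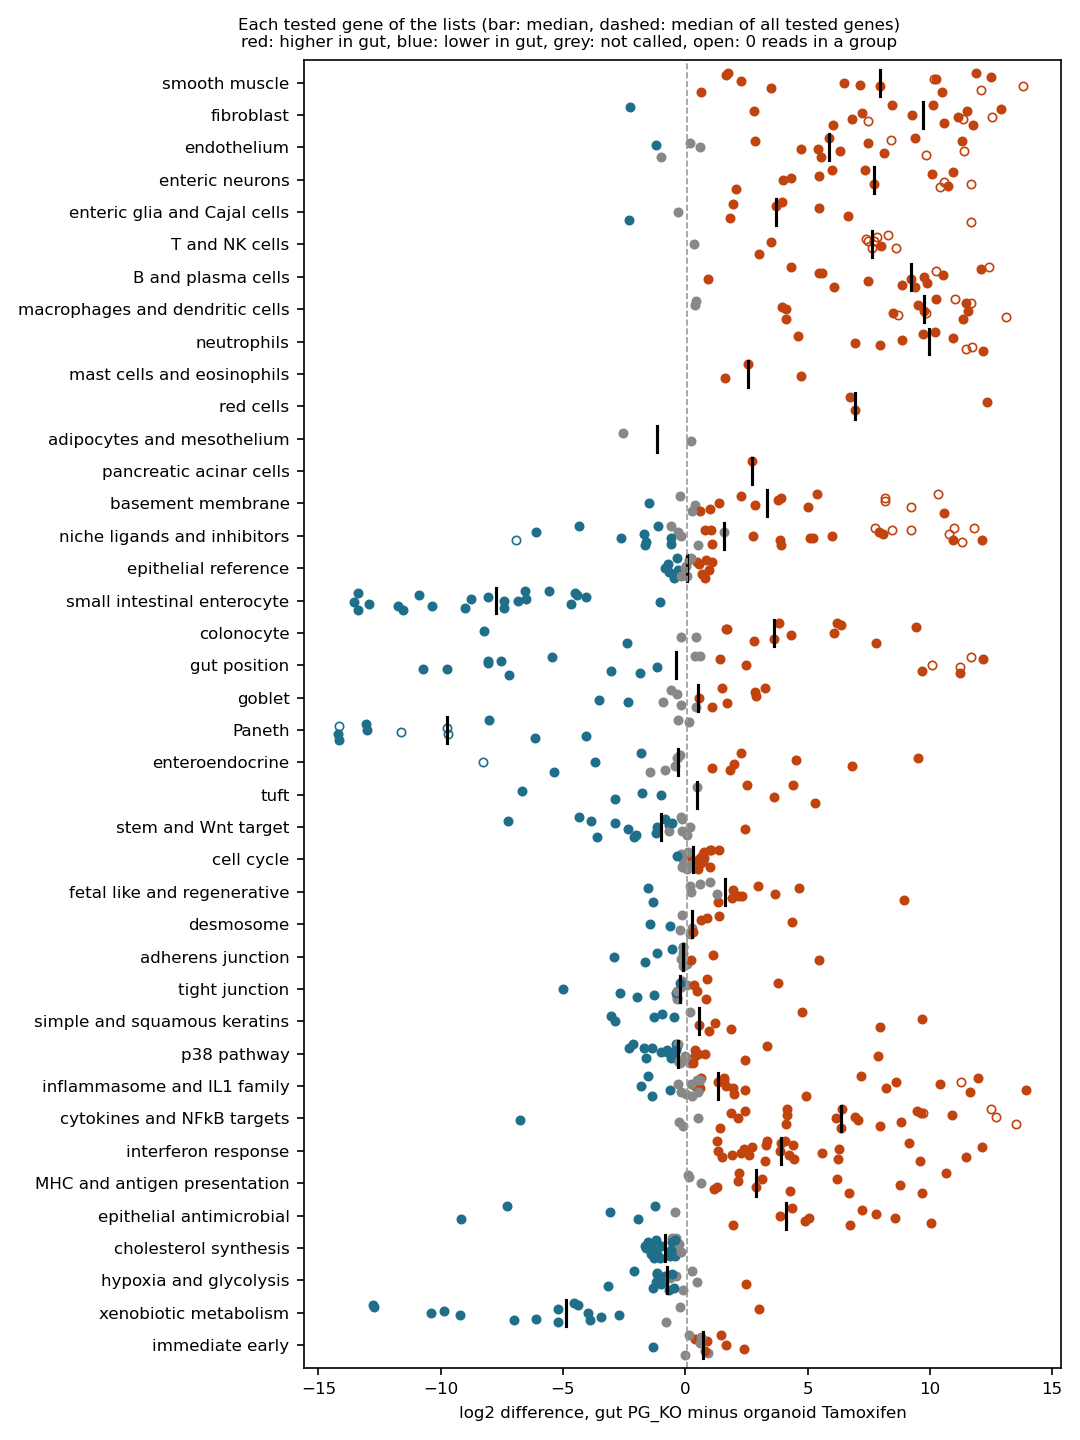
Log2 difference (gut PG_KO minus organoid Tamoxifen, edgeR) of every tested gene in 40 gene lists, one line per list, with the list's median as a black bar and the median of all tested genes, 0.06, as a dashed line. Smooth muscle, fibroblast, neuron and immune lists lie to the right, open symbols marking genes with 0 reads on a side, and the small intestinal enterocyte, Paneth and xenobiotic lists to the left, while the median of the epithelial reference list is 0.05.

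General epithelial genes differed in both directions. Of 20 genes that most intestinal epithelial cells express, 7 were higher in gut, 6 were lower and 7 were not called, with a median log2 difference of 0.05, and 14 did not overlap between groups. Both shares are near those of all tested genes, of which 67.6% were called and 74.1% did not overlap. Their summed level was 18824, 15810 and 18398 CPM in gut and 14062 to 14345 CPM in the organoids, so that every gut library lay above every organoid library. Cdh1, the E-cadherin of adherens junctions, was at 1296, 1199 and 1350 CPM in gut and 1251, 1318 and 1274 CPM in organoids. The ranges overlapped, and the log2 difference was -0.09 (SE 0.09, adjusted p 0.425). Epcam, an epithelial adhesion molecule, differed by -0.34 (SE 0.13, adjusted p 0.0492) and lost its call in 7 of the alternative fits, among them those without any one organoid library (adjusted p 0.0912 to 0.12), whereas Krt8, a keratin of simple epithelium, differed by 0.57 (SE 0.14, adjusted p 0.00961). Vil1, the microvillus protein villin whose promoter drives the Cre, was at 934, 592.2 and 728 CPM in gut and 1269, 1251 and 1245 CPM in organoids. It was lower in gut by a log2 difference of -0.82 (SE 0.20, adjusted p 0.00902).

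Genes of non-epithelial cells made up the clearest gut-side block. All 15 smooth muscle genes were higher in gut, with a median log2 difference of 7.96, or 7.28 when the 3 genes with 0 organoid reads are held at their lower bound. Acta2, smooth muscle actin, was at 122.4, 196.1 and 284 CPM in gut and at 0.0334, 0.0651 and 0.0358 CPM in organoids, and Actg2, the enteric form, had 0 organoid reads and was at least 1955-fold higher in gut (edgeR adjusted p 0.000179, floor of 3 reads over the group). Myh11, smooth muscle myosin, was at 121.8, 164.2 and 217.9 CPM in gut and 0.167, 0.0651 and 0.143 CPM in organoids, a log2 difference of 10.25 (SE 0.33, adjusted p 2.39e-06). Replicate 3 was the highest gut library for all 3 genes. The summed level of the list was 1106, 1424 and 1784 CPM in gut and 127.6 to 133.5 CPM in organoids. Most of the organoid sum came from members with wider expression, among them Mylk, a myosin kinase named here after its values were seen, at 47.0 to 49.3 CPM.

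Connective tissue followed the same direction with one exception. Of 16 fibroblast genes 15 were higher in gut and 1 was lower, with a median of 9.70 (8.86 with 0-read genes at their bound). Col1a1, a chain of type I collagen, was at 119.4, 149.7 and 117.6 CPM in gut and 1.17, 1.01 and 1.04 CPM in organoids, a log2 difference of 6.81 (SE 0.14, adjusted p 5.81e-07). Dcn, the collagen-binding proteoglycan decorin, was at 424.2, 375.2 and 120.3 CPM in gut and had 3 reads in all organoid libraries together, a ratio of 8921 (95% counting interval 3052 to 43262). Fbln1, a matrix glycoprotein of the same list, went the other way. It was at 47.9, 46.2 and 40.7 CPM in gut and 200.6, 205.2 and 211.2 CPM in organoids (log2 difference -2.28, SE 0.11, adjusted p 1.12e-05), and it averaged 0.603 CPM in nativ organoids.

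Vessels, nerves and glia were likewise on the gut side. In endothelium 13 of 17 genes were higher and 1 lower, with Pecam1, an adhesion molecule of endothelial junctions, at 20.3, 34.1 and 14.8 CPM in gut and 0.322 to 0.423 CPM in organoids. The lower gene was Egfl7, a matrix factor of vessels, at 13.3, 15.5 and 8.97 CPM in gut and 26.5 to 28.6 CPM in organoids (log2 difference -1.21, SE 0.21, adjusted p 0.00195). All 13 neuronal genes were higher (median 7.70, bound 7.52), among them Vip, a neuropeptide, at 137.6, 68.1 and 58 CPM in gut and 0.0334, 0.0976 and 0 CPM in organoids (log2 difference 10.74, and 11.92 without organoid replicate 2). In endothelium 2 genes were lower without gut replicate 1. For glia and interstitial cells of Cajal the list gave 7 higher and 1 lower of 9 tested, with 2 lower without any one gut library or without organoid replicate 3. Kit, the receptor that marks Cajal and mast cells, was not called: it was at 10.2, 7.60 and 6.90 CPM in gut and 9.48 to 9.66 CPM in organoids, although without gut replicate 1 it passed as lower (adjusted p 0.00699). Entpd2, an ecto-ATPase, was the gene that was lower in gut, with a log2 difference of -2.31 (SE 0.12, adjusted p 1.44e-05).

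Immune cell lists had no member that was lower in gut. Of 17 macrophage and dendritic cell genes 15 were higher (median 9.74, bound 8.48), all 10 tested neutrophil genes were higher (median 9.96, bound 8.80), all 15 tested B and plasma cell genes were higher (median 9.21, bound 8.86) and 10 of 11 tested T and NK cell genes were higher (median 7.63, bound 4.72). The gut libraries differed among themselves here. Csf1r, the receptor of macrophage growth factor, was at 85.1, 54.6 and 15.8 CPM in gut, against 0.0334 to 0.260 CPM in organoids (log2 difference 8.48, SE 0.97, adjusted p 0.000372). S100a9, a calcium-binding protein abundant in neutrophils, was at 266.2, 204.3 and 45.5 CPM in gut and 0.602 to 0.748 CPM in organoids (log2 difference 7.94, SE 0.85, adjusted p 0.000288). Replicate 3 was the lowest gut library for both, and the difference of Csf1r was 7.83 without gut replicate 1 and 9.39 without organoid replicate 2. Igha, the constant region of immunoglobulin A made by plasma cells, was at 321.2, 227 and 126.1 CPM in gut. T and NK cell genes were low throughout: the list summed to 18.3, 20.5 and 21.2 CPM, and Cd3e, a chain of the T cell receptor complex, had too few reads to be tested. Organoids had 0 reads for 5 of the 17 macrophage genes and 9 of the 15 T and NK cell genes. Red cell genes were low in replicate 3, with Hba-a1, an alpha globin, at 14.9, 35.7 and 1.38 CPM, and the 3 of 5 that were called had no call with limma-voom, while all 5 were called without that library. The log2 difference of Hba-a1 was 6.74, and 5.74 without gut replicate 2. Of other cell types few genes had enough reads: 3 of 11 mast cell and eosinophil genes and 1 of 10 pancreatic genes were tested and higher, and neither of the 2 tested adipocyte and mesothelium genes was called.

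**Figure D3:**
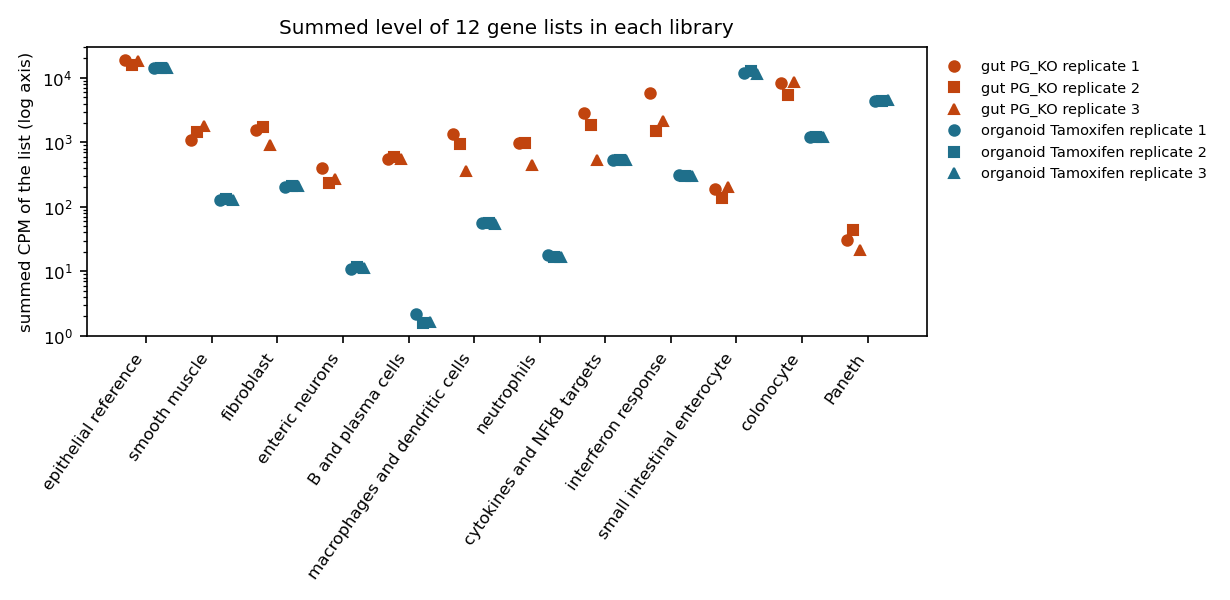
Summed CPM (log axis) of 12 gene lists in each of the 6 libraries, with gut PG_KO in red and organoid Tamoxifen in blue. Gut replicate 3 is the lowest of the gut libraries in the macrophage (361 CPM), neutrophil (450.5 CPM) and cytokine (534.9 CPM) lists, and the organoid libraries lie almost on top of each other.

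Matrix genes were mostly on the gut side. Of 18 tested basement membrane genes 14 were higher in gut and 1 lower. Lama1 and Lama2, laminin chains of muscle and connective tissue, had 0 organoid reads and were higher by at least 167.1-fold (Lama1) and at least 77.9-fold (Lama2). Lama5, a chain made by epithelium, was at 164.8, 160.3 and 95.3 CPM in gut and 90.3 to 111.1 CPM in organoids and was not called (log2 difference 0.38, SE 0.23, adjusted p 0.188), though it passed as higher without gut replicate 3 (adjusted p 0.00364). Lama3, a chain of another epithelial laminin, was at 198.5, 160.1 and 110.6 CPM in gut and 10.1 to 11.5 CPM in organoids (log2 difference 3.80, SE 0.26, adjusted p 4.56e-05). Lamb3, a partner chain of that laminin, differed by 1.38 (SE 0.12, adjusted p 0.000116).

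Signals that keep stem cells going were divided, with 20 of 35 tested niche genes higher in gut and 10 lower. Grem1, a BMP antagonist of the muscle layer, was at 141.4, 57.1 and 18.2 CPM in gut and had 1 organoid read, a ratio of 6401 (95% counting interval 1148 to 252881). Rspo3, the ligand that amplifies Wnt signals, was at 13.4, 7.2 and 2.77 CPM in gut, had 0 organoid reads and was at least 229.4-fold higher, and Wnt5a, a mesenchymal Wnt, differed by 5.10 (SE 0.30, adjusted p 2.22e-05). Gut replicate 3 was the lowest for all 3 ligands. The ligands Wnt3, Btc, Areg and Ihh were on the organoid side. Bmp2, a BMP ligand, was higher in gut by a log2 difference of 1.08 (SE 0.19, adjusted p 0.00217). Its call was lost in the fit to all 15 libraries (adjusted p 0.0523). Wnt3, the Wnt of Paneth cells, was at 0.0352, 0.356 and 0.205 CPM in gut and 13.3, 13.0 and 11.9 CPM in organoids (log2 difference -6.10, SE 0.45, adjusted p 5.35e-05, and -6.75 without gut replicate 2). Btc, an EGF receptor ligand, was at 13.5, 11 and 9.26 CPM in gut and 64.4 to 68.1 CPM in organoids (log2 difference -2.64, SE 0.18, adjusted p 3.73e-05). Areg, another such ligand, was at 121.2, 59.7 and 54.2 CPM in gut and 233.2 to 238.3 CPM in organoids (log2 difference -1.65, SE 0.35, adjusted p 0.00548). Both were lower in every gut library than in any organoid library, as was Ihh, the hedgehog ligand of differentiated epithelium, with a log2 difference of -1.12 (SE 0.25, adjusted p 0.0066).

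The epithelium of the 2 sides carried opposite regional programmes. All 22 small intestinal enterocyte genes were lower in gut, with a median log2 difference of -7.74 and a summed level of 185.7, 139.1 and 202.2 CPM against 11544 to 12583 CPM. Sis, the sucrase-isomaltase of the villus brush border, was at 0.141, 0.515 and 0.239 CPM in gut and 2926, 3096 and 2762 CPM in organoids, a log2 difference of -13.37 (SE 0.30, adjusted p 6.82e-07). Lct, lactase, was at 0.0352, 0.119 and 0.0684 CPM in gut and 83.3 to 107.9 CPM in organoids (log2 difference -10.34, SE 0.24, adjusted p 7.72e-07). These genes were at or near 0 in all gut libraries. Apoa4, an apolipoprotein of chylomicrons, had 2 gut reads and 28851 organoid reads, a ratio of 13496 (95% counting interval 3736 to 111448). The smaller differences in the list were those of genes that the gut libraries did express: Slc5a1, the sodium-glucose cotransporter, was at 41.3, 62.1 and 92.3 CPM against 1549 to 1603 CPM (log2 difference -4.69, SE 0.27), and Apob, the structural protein of chylomicrons, at 44.9, 15.6 and 40.9 CPM against 431.8 to 631.4 CPM (log2 difference -4.05, SE 0.45).

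Colonocyte genes were mostly higher in gut, 11 of 15, with 2 lower and a median of 3.62. Car1, a colonic carbonic anhydrase, was at 444, 313.4 and 622.2 CPM in gut and 5.95, 6.54 and 5.05 CPM in organoids (log2 difference 6.21, SE 0.31, adjusted p 1.38e-05). Aqp8, a water channel, was at 31.8, 16.9 and 25.2 CPM in gut and 0.0669 to 0.163 CPM in organoids (log2 difference 7.79, SE 0.45, adjusted p 2.11e-05). Slc26a3, the chloride-bicarbonate exchanger, was at 160.2, 65.3 and 161.6 CPM against 36.4 to 37.9 CPM (log2 difference 1.72, SE 0.36, adjusted p 0.00485). Guca2a, the peptide guanylin, went against this direction, as did Cyp2c55, a cytochrome P450. Guca2a was at 69.9, 27.7 and 61.2 CPM in gut and 254.9 to 273 CPM in organoids (log2 difference -2.39, SE 0.36, adjusted p 0.00115). Cyp2c55 was at 3.35, 0.396 and 0.479 CPM in gut and 397.3 to 427.3 CPM in organoids, a log2 difference of -8.23 (SE 0.80, adjusted p 0.000187) that was -10 without gut replicate 1, the highest gut library. Car4, another carbonic anhydrase, was not called: it was at 72.1, 51.9 and 54.0 CPM in gut and 39.9 to 43.2 CPM in organoids (log2 difference 0.43, SE 0.17, adjusted p 0.0607). It passed as higher without any one gut library (adjusted p 0.0388 to 0.0436), and its gut ctr mean was 942.9 CPM.

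Genes that mark position along the gut followed the same division, with 8 higher and 10 lower of 20 tested. Gata4, the transcription factor of the duodenum and jejunum, was at 0.176, 0.198 and 0.0684 CPM in gut and 117.8, 119.3 and 124.8 CPM in organoids (log2 difference -9.75, SE 0.21, adjusted p 6.81e-07). Fabp6, the ileal bile acid binding protein, was at 1.23, 1.62 and 5.09 CPM in gut and 100.1 to 116.7 CPM in organoids (log2 difference -5.44, SE 0.50, adjusted p 0.000146, and -6.31 without gut replicate 3). The organoids thus carried a proximal and a distal small intestinal marker side by side. Hoxb13, the homeobox gene of the hindmost gut, was at 168.3, 227.1 and 330 CPM in gut and 0.0334, 0.0976 and 0 CPM in organoids (log2 difference 12.16, SE 0.48, adjusted p 5.78e-06, and 13.34 without organoid replicate 2), and Hoxd13, another hindgut gene, was at 56.1, 152.1 and 171 CPM against 0.0334 to 0.0651 CPM (log2 difference 11.21, SE 0.68, adjusted p 2.91e-05). Cdx2, the intestinal homeobox factor of both regions, was lower in gut by a log2 difference of -1.86 (SE 0.16, adjusted p 0.00011). No label names the segment, and these markers put the gut libraries with colon and the Tamoxifen organoids with small intestine. Tissue against culture therefore cannot be told apart from colon against small intestine in any epithelial gene of the comparison.

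**Figure D4:**
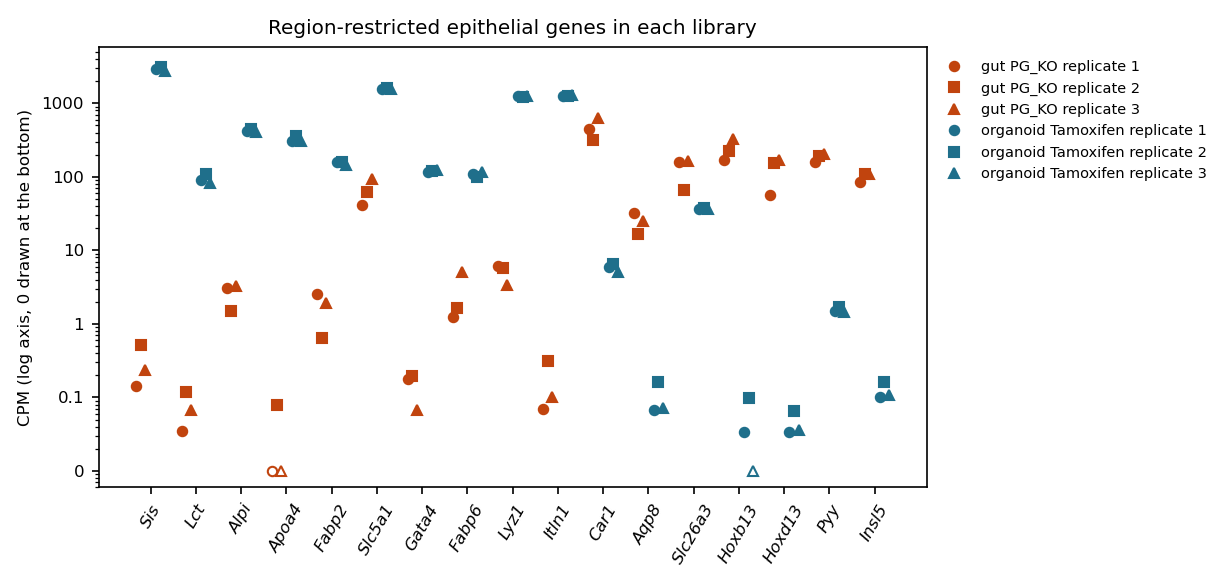
CPM (log axis, values of 0 as open symbols at the bottom) of region-restricted epithelial genes in each gut PG_KO (red) and organoid Tamoxifen (blue) library. From Sis to Itln1 the organoids are above the gut, and from Car1 to Insl5 the gut is above the organoids.

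Paneth cell genes, a secretory set of the small intestine, were on the organoid side. Of 13 tested Paneth cell genes 11 were lower in gut and 0 higher (median -9.73, or -8.02 with 0-read genes at their bound), the list summing to 30.7, 43.8 and 21.7 CPM in gut and 4398 to 4487 CPM in organoids. Lyz1, Paneth cell lysozyme, was at 6.06, 5.75 and 3.33 CPM in gut and 1264, 1212 and 1246 CPM in organoids (log2 difference -8.02, SE 0.29, adjusted p 3.46e-06). Itln1, the lectin intelectin, had a log2 difference of -13.03 (SE 0.29, adjusted p 6.82e-07, and -13.85 without gut replicate 2). Defa24, an alpha-defensin, had 4.5 gut and 79071 organoid reads, but defensin copies are nearly identical and the split of reads between them is uncertain. Ang4, an antimicrobial ribonuclease of Paneth and goblet cells, stood at 0.176, 0.158 and 0.205 CPM in gut and 98.1 to 103.7 CPM in organoids (log2 difference -9.17, SE 0.12, adjusted p 3.06e-07).

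Goblet cell genes did not move as one, with 7 higher, 2 lower and 5 not called of 14 tested (median 0.50). Among all tested genes, 67.6% were called. Muc2, the secreted gel mucin, was at 141.3, 443.7 and 228 CPM in gut and 23.8, 34 and 20 CPM in organoids (log2 difference 3.27, SE 0.43, adjusted p 0.000679). Zg16, a lectin of the colonic mucus, was at 100.5, 332.8 and 264.5 CPM in gut and 28.7 to 30.8 CPM in organoids (log2 difference 2.84, SE 0.39, adjusted p 0.000789). Gut replicate 1 was the lowest gut library for both and still above the organoids. Tff3, the trefoil peptide packed with mucin, was lower in gut at 36.2, 80.3 and 73.0 CPM against 292.8 to 301.5 CPM (log2 difference -2.34, SE 0.25, adjusted p 0.000275), as was Spink4, a goblet cell protease inhibitor, by -3.52 (SE 0.42, adjusted p 0.000429). Without gut replicate 2, and also without gut replicate 3, 4 goblet genes were lower. Fcgbp and Clca1, further mucus proteins, and the goblet fate regulator Atoh1 had overlapping groups and were not called, but leaving out one gut library gave a call for each: Fcgbp without replicate 2 (adjusted p 0.0136), Clca1 without replicate 1 (adjusted p 0.00092) and Atoh1 without replicate 3 (adjusted p 0.0196).

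Hormone genes differed in both directions. Pyy, a peptide of L cells, was at 161.2, 194.9 and 206.2 CPM in gut and 1.5, 1.69 and 1.47 CPM in organoids (log2 difference 6.81, SE 0.11, adjusted p 3.22e-07). Insl5, a peptide of colonic L cells, was at 84, 108.3 and 109.7 CPM against 0.1 to 0.163 CPM (log2 difference 9.52, SE 0.17, adjusted p 3.59e-07). Gip, the hormone of duodenal K cells, had 0 gut reads and was at least 36.5-fold lower in gut, and Ghrl, ghrelin, was lower by a log2 difference of -5.37 (SE 0.34, adjusted p 3.03e-05). Cck, a hormone of small intestinal I cells, had overlapping groups, 1.69, 3.09 and 0.752 CPM in gut and 1.77 to 2.37 CPM in organoids, and was not called (log2 difference -0.23, SE 0.47, adjusted p 0.685). The general granule protein Chga differed by 2.29 (SE 0.20), whereas Chgb was not called (log2 difference -0.41, adjusted p 0.229). Over all 17 tested hormone and regulator genes, 7 were higher and 4 lower, with a median of -0.28, and 7 were lower without gut replicate 3. In the full fit this share of calls was near the 67.6% of all tested genes. Among 9 tuft cell genes 4 were higher and 4 lower, with Dclk1, a kinase of tuft cells, higher by 2.51 (SE 0.20) and Trpm5, their taste channel, and Pou2f3, their master regulator, both lower. Pou2f3 had 1 gut read and 143 organoid reads, a ratio of 134 (95% counting interval 23.6 to 5321).

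Genes of xenobiotic metabolism were mostly on the organoid side. Of 18 tested xenobiotic genes 15 were lower in gut and 1 higher, with a median of -4.88 and a summed level of 443.6, 368.6 and 500.4 CPM against 8285 to 8748 CPM. Nativ organoids of T75 summed to 2228 to 2524 CPM. Drug exposure, code T41 and gut region cannot be told apart here. Cyp2c29, a cytochrome P450, had 0 gut reads and 263.6, 295.2 and 247.5 CPM in organoids, an at least 7447-fold difference. Cyp3a11, the main drug-oxidising P450, had 1 gut read against 9298 organoid reads, a ratio of 8699 (95% counting interval 1561 to 343631). Abcb1a, the efflux pump P-glycoprotein, was at 14.7, 18.5 and 18.3 CPM in gut and 607.1, 595.4 and 577.3 CPM in organoids (log2 difference -5.21, SE 0.09, adjusted p 3.42e-07), while Abcg2, another efflux pump, was not called (log2 difference -0.21, adjusted p 0.321). Ahrr, a repressor of the dioxin receptor, was the one gene higher in gut. It was at 1.02, 1.07 and 0.581 CPM in gut and 0.0334, 0.228 and 0.0358 CPM in organoids, a log2 difference of 3.00 (SE 0.65, adjusted p 0.00557) that was 4.43 without organoid replicate 2, the highest organoid library. Cholesterol synthesis genes were also lower in gut PG_KO than in Tamoxifen organoids, 16 of 22 with 0 higher and a median of -0.82. The list summed to 1896, 3371 and 3340 CPM in gut PG_KO and 4875 to 4971 CPM in Tamoxifen organoids. Gut ctr summed to 1490, 2383 and 2602 CPM and nativ organoids to 1419 to 1596 CPM. The Tamoxifen organoids were thus the highest of these groups, and drug exposure and code T41 cannot be told apart from tissue. Sqle, squalene epoxidase, was at 70.9, 173.7 and 152.2 CPM in gut and 248.2 to 252.2 CPM in organoids (log2 difference -1.03, SE 0.27, adjusted p 0.0139). Gut replicate 1 was the lowest library for this gene.

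Stem cell and Wnt target genes were lower in gut for 13 of 20 and higher for 1, with a median of -1.0. Lgr5, the R-spondin receptor of crypt base stem cells, was at 0.388, 3.88 and 2.46 CPM in gut and 42.3, 42.8 and 41.4 CPM in organoids (log2 difference -4.36, SE 0.60, adjusted p 0.000819, and -4.98 without gut replicate 2). Axin2, a feedback inhibitor induced by Wnt, was at 22.8, 36.2 and 31.9 CPM in gut and 124.1, 111.2 and 122.7 CPM in organoids (log2 difference -2.08, SE 0.14, adjusted p 3.73e-05). The stem cell factor Ascl2, in contrast, had overlapping groups, 5.0, 10.9 and 13.6 CPM in gut and 8.85 to 10.5 CPM in organoids, and was not called (log2 difference -0.12, adjusted p 0.745). Nkd1, another Wnt feedback inhibitor, went against the list with 8.39, 11.5 and 9.78 CPM in gut and 1.40 to 2.11 CPM in organoids (log2 difference 2.46, SE 0.21, adjusted p 0.000103). Olfm4, a crypt glycoprotein, was at 2.61, 1.5 and 0.137 CPM in gut and 10 to 10.2 CPM in organoids (log2 difference -2.89, SE 0.77, adjusted p 0.014). This call was lost without gut replicate 2 (adjusted p 0.0502), and the difference was -3.80 without gut replicate 1.

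Proliferation genes, where called, were mostly higher in gut, by small differences. Of 25 cell cycle genes 15 were higher, 1 lower and 9 not called, with a median of 0.30. This share of calls was near the 67.6% of all tested genes, of which 36.9% were higher in gut, with a median of 0.06. Under epithelial scaling the counts were 10 and 2 and the median was 0.12, against -0.11 for all tested genes. Without gut replicate 2 the number lower was 5. Mki67, the proliferation antigen, was at 263.8, 286.1 and 389.7 CPM in gut and 153.8, 153.3 and 118.8 CPM in organoids (log2 difference 1.05, SE 0.16, adjusted p 0.00118). Mcm5, a subunit of the replicative helicase, differed by 0.99 (SE 0.13, adjusted p 0.000524). Top2a, a topoisomerase of dividing cells, differed by 0.30 (SE 0.08, adjusted p 0.0179), and its call was lost under epithelial scaling (log2 difference 0.12, adjusted p 0.412) and without any one organoid library (adjusted p 0.0606 to 0.0945). Bulk RNA does not tell which cells were dividing.

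Fetal-like and regenerative epithelial genes were higher in gut for 9 of 16 and lower for 2, with a median of 1.61. This share of calls was near the 67.6% of all tested genes, of which 36.9% were higher in gut. The list summed to 6268, 4669 and 4491 CPM in gut PG_KO and to 5484, 4685 and 4296 CPM in gut ctr. It summed to 1491 to 1508 CPM in Tamoxifen organoids and 14328 to 19117 CPM in nativ organoids. Ly6a, the surface protein Sca-1 that marks repairing colon epithelium and is also present on immune and endothelial cells, was at 2114, 1427 and 1533 CPM in gut and 324.4, 321.3 and 318.8 CPM in organoids (log2 difference 2.32, SE 0.20, adjusted p 9.95e-05). Anxa1, a phospholipid-binding protein of repair, was at 1101, 996.4 and 591.3 CPM in gut and 31.8 to 37.0 CPM in organoids (log2 difference 4.65, SE 0.29, adjusted p 3.11e-05). Clu, the revival stem cell marker, did not pass (52.5, 63.7 and 150.7 CPM in gut, 33.7 to 47.4 CPM in organoids, adjusted p 0.0504) but passed in 7 of the alternative fits, among them those without any one gut library (adjusted p 0.0212 to 0.0456). Lower in gut were Tnfrsf12a, a receptor of wound signals (log2 difference -1.31, SE 0.33, adjusted p 0.011), and Sprr1a, a cornified envelope protein (log2 difference -1.54, SE 0.50, adjusted p 0.031), whose call was lost in 5 alternative fits, among them those without gut replicate 2 or any one organoid library (adjusted p 0.0644 to 0.084). The number lower was 1 without gut replicate 2 or without organoid replicate 1 or 2.

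Among the genes whose proteins bind plakoglobin, differences were small next to those of the regional genes. Of 11 tested desmosome genes 5 were higher in gut, 2 lower and 4 not called, with a median of 0.26, and with epithelial scaling the counts were 4 and 4. The main share of calls was near the 67.6% of all tested genes. Without gut replicate 1 the number lower was 4. Dsp, desmoplakin, the link from plakoglobin to keratin, was at 586.9, 530.5 and 531 CPM in gut and 335.3, 349.3 and 312.5 CPM in organoids (log2 difference 0.64, SE 0.11, adjusted p 0.00164). Pkp3, a plakophilin, was at 198.9, 167 and 193.9 CPM in gut and 93.4 to 97.7 CPM in organoids (log2 difference 0.89, SE 0.11, adjusted p 0.00049). Its relative Pkp2 went the other way, with 70.0, 82.7 and 72.3 CPM in gut and 108.1 to 109.6 CPM in organoids (log2 difference -0.63, SE 0.07, adjusted p 0.000358). Ppl, periplakin, was lower as well (log2 difference -1.43, SE 0.16, adjusted p 0.000308). The desmosomal cadherins Dsg2 (log2 difference -0.13, SE 0.14, adjusted p 0.425) and Dsc2 (0.26, SE 0.13, adjusted p 0.106) were not called, but Dsg2 passed as lower without gut replicate 1 (adjusted p 0.00615) and Dsc2 as higher without gut replicate 3 (adjusted p 0.0482).

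Adherens junction genes gave 3 higher and 4 lower of 13 tested with a median of -0.09, and 2 and 8 under epithelial scaling. The main share of calls was below the 67.6% of all tested genes. Without any one organoid library 1 was higher. Ctnnb1, beta-catenin, was at 1151, 1040 and 979.6 CPM in gut and 1088, 1051 and 1071 CPM in organoids (log2 difference -0.10, SE 0.11, adjusted p 0.445), but it passed as lower under epithelial scaling (log2 difference -0.29, adjusted p 0.021) and without gut replicate 1 (adjusted p 0.0161). Cdh17, the intestinal cadherin, was at 995.4, 714.5 and 727.8 CPM in gut and 1696 to 1728 CPM in organoids (log2 difference -1.15, SE 0.18, adjusted p 0.00122). Cdh2, the neural and mesenchymal cadherin, had 5.76, 3.72 and 3.85 CPM in gut and 0.0325 to 0.197 CPM in organoids (log2 difference 5.47, SE 0.60, adjusted p 0.000278, and 6.82 without organoid replicate 3). Tight junctions differed by isoform, with 5 higher and 6 lower of 17 (4 and 10 under epithelial scaling). In the main fit that share of calls was near the 67.6% of all tested genes. Cldn15, the cation-pore claudin of small intestine, was at 11.8, 17.9 and 21.2 CPM in gut and 508.6 to 517.9 CPM in organoids (log2 difference -5.02, SE 0.19, adjusted p 4.57e-06). Cldn2, another pore-forming claudin, was lower in gut by a log2 difference of -2.66 (SE 0.36, adjusted p 0.0008), and Cldn8, a sealing claudin of distal colon, was higher by 3.77 (SE 0.12, adjusted p 2.38e-06). Keratins were split as well, 7 higher and 5 lower of 13: Krt20 of surface epithelium differed by 1.21 (SE 0.30, adjusted p 0.0111) and Krt23 by -3.04 (SE 0.24, adjusted p 7.23e-05). Krt13, a keratin of stratified squamous epithelium, was at 24.8, 23.3 and 35.8 CPM in gut and at most 0.161 CPM in organoids (log2 difference 7.95, SE 0.37, adjusted p 9.51e-06), and its gut ctr mean was 5.27 CPM.

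The title of the study names p38 MAP kinase and the inflammasome, so both lists were examined. For p38, the stress kinase family, 13 of 30 genes were lower in gut and 8 higher, with a median of -0.28, and epithelial scaling gave 16 and 5. Among all tested genes, 67.6% were called and 30.7% were lower in gut. Mapk14, the widely expressed p38 alpha, was at 106.2, 127.5 and 104.2 CPM in gut and 91.4 to 96.9 CPM in organoids and was not called (log2 difference 0.18, SE 0.09, adjusted p 0.124), though it passed as higher without gut replicate 3 (adjusted p 0.0203). Mapk13, the p38 delta of epithelium, was lower in gut at 273.8, 234.9 and 313.3 CPM against 419.4 to 436.1 CPM (log2 difference -0.73, SE 0.12, adjusted p 0.00163). Its upstream kinase Map2k6 was at 5.36, 14.7 and 15.9 CPM against 52.9 to 58.4 CPM (log2 difference -2.31, SE 0.35, adjusted p 0.00117), while the other upstream kinase, Map2k3, was not called (log2 difference -0.02, adjusted p 0.928). On the gut side were Hspb1, a small heat shock protein phosphorylated downstream of p38 (log2 difference 3.36, SE 0.46, adjusted p 0.000793), Dusp1, a phosphatase that switches p38 off (2.43, SE 0.59, adjusted p 0.00974, and 0.0582 by limma-voom), and Mef2c, a p38 target factor of muscle. Transcript levels do not measure kinase activity.

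Inflammasome and IL-1 family genes were higher in gut for 19 of 31 and lower for 4, with a median of 1.34. Il1b, interleukin 1 beta, was at 528.7, 204.1 and 14.9 CPM in gut and had 1 organoid read, a ratio of 22016 (95% counting interval 3951 to 869634). Its gut ctr mean was 178.4 CPM. Nlrp3, the sensor of myeloid cells, was at 32.6, 11.3 and 1.81 CPM in gut and had 3 organoid reads, a ratio of 450.0 (95% counting interval 153.6 to 2185). For both genes gut replicate 3 was over 5 times below the other gut libraries, and their calls with edgeR (adjusted p 0.00159 and 0.00279) were lost with limma-voom (adjusted p 0.117 and 0.0555). Other members differed by less. Il18, the IL-1 family cytokine stored in epithelium, was at 47.6, 47.9 and 83.2 CPM in gut and 21.4 to 23 CPM in organoids (log2 difference 1.34, SE 0.21, adjusted p 0.00137). Aim2, a DNA sensor, was at 65.8, 58.6 and 78.5 CPM against 11.1 to 12.4 CPM (log2 difference 2.46, SE 0.13, adjusted p 1.51e-05), and Gsdmd, the pore-forming gasdermin D, differed by 1.68 (SE 0.17, adjusted p 0.000215). Casp1, the inflammasome protease, passed narrowly (0.62, SE 0.22, adjusted p 0.0435) and lost its call in 9 alternative fits, among them those without gut replicate 1, gut replicate 3 or any one organoid library (adjusted p 0.0912 to 0.121), and the adaptor Pycard was not called (0.26, adjusted p 0.419). Nlrp6, a sensor of intestinal epithelium, was lower in gut at 72.3, 60.1 and 141.3 CPM against 217.5 to 226.4 CPM (log2 difference -1.37, SE 0.30, adjusted p 0.00623), as was Naip6, a flagellin sensor family member (log2 difference -1.54, SE 0.18, adjusted p 0.000378).

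Cytokine and NF-kB target genes were higher in gut for 21 of 25 tested and lower for 1, with a median of 6.38, but the number higher was 9 with limma-voom. Tnf, tumour necrosis factor, was at 133.1, 25.1 and 5.74 CPM in gut and 2.80 to 3.18 CPM in organoids, a log2 difference of 4.17 (SE 1.16, adjusted p 0.0168). That call was lost with limma-voom (adjusted p 0.167) and without any one of the 3 organoid libraries (adjusted p 0.0572 to 0.0602), and the difference was 2.21 without gut replicate 1. Cxcl1, a neutrophil-attracting chemokine, was at 57.7, 71.9 and 4.48 CPM against 0.358 to 0.618 CPM. The summed level of the list was 2821, 1828 and 534.9 CPM in gut and 524.1 to 538.9 CPM in organoids. The sum of gut replicate 3 thus lay within the organoid range. However, 233.5 to 242.6 CPM of the organoid sum came from Ccl25, described below, against 2.29 CPM in gut replicate 3. Without that library 28 genes of the list were called higher. In gut ctr the list summed to 2149, 1499 and 1446 CPM. Cxcl12, a stromal chemokine, varied less, with 28.3, 41.3 and 16.9 CPM in gut and 3 organoid reads (ratio 833.3, 95% counting interval 284.8 to 4044). Ccl25, the small intestinal chemokine that attracts lymphocytes, was the gene that was lower in gut, at 2.43, 2.34 and 2.29 CPM against 233.5 to 242.6 CPM (log2 difference -6.74, SE 0.10, adjusted p 3.22e-07). Antimicrobial genes of epithelium divided into 10 higher and 5 lower of 16. Duox2, a hydrogen peroxide generating oxidase, was at 1115, 910.4 and 459 CPM against 48.0 to 59.2 CPM (log2 difference 3.87, SE 0.37, adjusted p 0.000182), and Reg3g, a lectin of small intestine, was lower in gut by -3.08 (SE 0.51, adjusted p 0.00181), or by -3.91 without gut replicate 1.

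**Figure D5:**
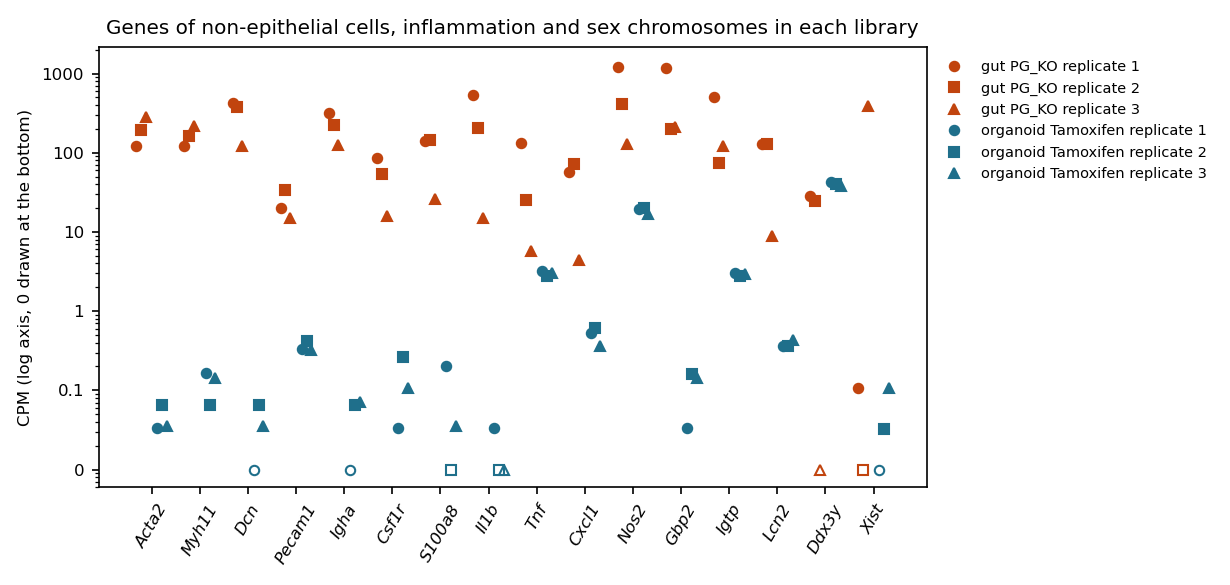
CPM (log axis, values of 0 as open symbols at the bottom) of genes of non-epithelial cells, inflammation and sex chromosomes in each gut PG_KO (red) and organoid Tamoxifen (blue) library. Gut replicate 3 has the lowest gut value of Il1b (14.9 CPM) and Lcn2 (8.99 CPM), 0 CPM of Ddx3y, and 384.4 CPM of Xist.

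Interferons are alarm cytokines whose receptors switch on a set of antimicrobial genes in most cell types. Of 24 such response genes 24 were higher in gut, with a median log2 difference of 3.9, against 36.9% of all tested genes. The groups overlapped for none of the 24, against a background of 74.1% of genes without overlap. Gut replicate 1 was far above the others, the list summing to 5782, 1491 and 2159 CPM in gut and 301.8 to 315.2 CPM in organoids. Gut ctr was also high, with sums of 2864, 4004 and 2203 CPM. Gbp2, an interferon-induced GTPase that attacks vacuoles of microbes, was at 1187, 202 and 214.2 CPM in gut and 0.0334, 0.163 and 0.143 CPM in organoids (log2 difference 12.13, SE 1.35, adjusted p 0.000332). Igtp, a GTPase of the same defence, was at 508.6, 75 and 120 CPM against 2.77 to 3.01 CPM (log2 difference 6.30, SE 0.92, adjusted p 0.00105). Isg15, a ubiquitin-like protein, was at 139.2, 28.4 and 66.3 CPM against 3.74 to 5.30 CPM (log2 difference 4.07, SE 0.64, adjusted p 0.00148). Ifit1, a sensor of foreign RNA named here for its promoter, was at 124.1, 25.3 and 68.9 CPM against 17.3 to 20 CPM (log2 difference 1.90, SE 0.56, adjusted p 0.0209). Limma-voom and the fit without filter each called 20 of the 24, and leaving out an organoid library called 19 or 20. Without gut replicate 1 the log2 difference was 10.65 for Gbp2, 4.92 for Igtp and 3.26 for Isg15. The edgeR count was 24 without gut replicate 1 and also without gut replicate 3.

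As all 24 were called in one direction, their promoters were searched. RefSeq promoter windows (GRCm38.p6, the 250 bases before the transcript start) were held for 17 of the 24 genes in 19 windows. A spaced pair, GAAA followed after 2 bases by another GAAA, or TTTC likewise followed by TTTC on the opposite strand, is the core of the element that interferon-activated factors bind. It occurred in 12 of the 19 windows (63.2%), one in each of 12 genes, and in 2.98% of all 32851 windows of the table. It was 1 of 11 motifs looked for in 8 lists, chosen with the calls known, and apart from it 1 other of the 88 pairs, TGATAA in the Paneth list (40.0% of 10 windows against 7.94% of all), had at least 3 matches and a share over 5 times that of all windows. The other motifs, read on both strands, were the HNF1 site GTTAAT and the HNF1 palindrome that holds it, the GATA factor site AGATAA beside TGATAA, the homeobox sites TTTATG and TTTATTG, the E box CACGTG, the CArG box, the NF-kB site, and the direct repeat of AGGTCA with 1 base between. The 4 windows shown here were chosen after the matches were seen and are printed in the direction of the gene. Matches, counted without overlap, are in capitals. They lie at chr3:142620413-142620662 (Gbp2, plus strand), chr11:58199306-58199555 (Igtp, plus strand), chr4:156200819-156201068 (Isg15, minus strand) and chr19:34640639-34640888 (Ifit1, plus strand).
Gbp2: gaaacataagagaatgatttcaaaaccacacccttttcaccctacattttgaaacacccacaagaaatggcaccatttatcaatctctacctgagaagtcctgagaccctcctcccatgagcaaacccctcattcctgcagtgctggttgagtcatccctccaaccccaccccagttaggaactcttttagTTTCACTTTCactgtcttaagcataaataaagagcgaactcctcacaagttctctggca
Igtp: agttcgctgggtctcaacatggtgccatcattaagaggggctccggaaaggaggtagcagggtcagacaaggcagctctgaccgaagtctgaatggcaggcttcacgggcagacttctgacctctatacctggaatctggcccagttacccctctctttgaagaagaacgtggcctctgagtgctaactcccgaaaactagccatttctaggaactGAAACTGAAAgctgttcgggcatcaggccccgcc
Isg15: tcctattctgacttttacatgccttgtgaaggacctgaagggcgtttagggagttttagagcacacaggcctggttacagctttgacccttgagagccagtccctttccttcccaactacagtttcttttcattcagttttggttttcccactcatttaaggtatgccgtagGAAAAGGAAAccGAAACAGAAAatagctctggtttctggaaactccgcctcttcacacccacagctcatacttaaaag
Ifit1: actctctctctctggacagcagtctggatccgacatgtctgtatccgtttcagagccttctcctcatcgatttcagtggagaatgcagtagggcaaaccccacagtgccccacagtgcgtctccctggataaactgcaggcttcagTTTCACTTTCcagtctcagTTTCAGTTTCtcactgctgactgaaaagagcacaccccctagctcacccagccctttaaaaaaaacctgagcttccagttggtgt
The match begins at position -59 from the start in Gbp2 and at -34 in Igtp, where -1 is the base before the transcript start. Counted without overlap, Isg15 has 2 matches, at -78 and -66, and Ifit1 has 2, at -104 and -85. In Isg15 the last GAAA of the first match, the cc after it and the next GAAA form a further match, which overlaps both. These letters are a description of the windows and not a sign that a factor was bound in either tissue.

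Genes of antigen presentation were higher in gut for 12 of 15 and lower for 0 (median 2.87). Members of class II presentation differed in size. Cd74, the invariant chain, was at 392, 272.5 and 362.4 CPM in gut and 0.301 to 0.537 CPM in organoids (log2 difference 9.67, SE 0.29, adjusted p 2.13e-06). Ciita, the class II master regulator, had 1456 gut reads and 3 organoid reads, a ratio of 519 (95% counting interval 177.2 to 2518), yet the class II chain H2-Ab1 was present in organoids at 19.1 to 21.5 CPM, against 212.7, 118.9 and 127.4 CPM in gut (log2 difference 2.87, SE 0.28, adjusted p 0.000203). Class I genes differed less: B2m was at 980.1, 482 and 329 CPM in gut and 360.1 to 371.5 CPM in organoids and was not called (log2 difference 0.66, SE 0.41, adjusted p 0.197, but 0.0354 without gut replicate 3), nor was H2-K1 (0.13, SE 0.23, adjusted p 0.626).

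Hypoxia and glycolysis genes were lower in gut for 12 of 18 and higher for 1 (3 without gut replicate 3), with a median of -0.75. Car9, a carbonic anhydrase induced by low oxygen, was at 155.3, 207.7 and 141.8 CPM in gut and 388.4 to 396.2 CPM in organoids (log2 difference -1.32, SE 0.14, adjusted p 0.000233). Ldha, lactate dehydrogenase A, differed by -0.67 (SE 0.12, adjusted p 0.00246). Hk2, hexokinase 2, was the exception, at 870.4, 637.6 and 259.9 CPM in gut and 95.1 to 102.7 CPM in organoids (log2 difference 2.5, SE 0.44, adjusted p 0.00251). Immediate early genes, which respond within minutes to handling of tissue, were higher in gut for 6 of 12 and lower for 1. Among all tested genes, 67.6% were called. Fos was at 193.2, 218 and 137.6 CPM against 61.3 to 65.0 CPM (log2 difference 1.45, SE 0.18, adjusted p 0.00046), and Egr1, at 112.7, 69.4 and 38.6 CPM against 173.3 to 182 CPM, was the lower gene (log2 difference -1.33, SE 0.39, adjusted p 0.0207) and lost its call in 5 alternative fits, among them those without gut replicate 2 or any one organoid library (adjusted p 0.0505 to 0.0708).

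The gut minus organoid difference of the low-Jup pair was set against that of the pair with ordinary Jup, gut ctr minus nativ organoids, in one fit over 12 libraries that share no sample between pairs. The organoid code changes with it, from T41 to T75, as do Tamoxifen treatment and any differences between gut groups, so Jup cannot be told apart from these. Of 19190 genes tested, 6822 (35.5%) had a different gut-organoid difference in the 2 pairs. For Jup itself the interaction was 0.19 with an adjusted p of 0.646. Sis differed between pairs by a log2 of -11.13 (SE 1.88, adjusted p 0.000851) and by -14.26 without nativ replicate 2. Its level was 0.251, 0.302 and 0.268 CPM in gut ctr and 0.131, 2.82 and 0.139 CPM in nativ organoids, of which replicate 2 alone lay above the gut. Of 22 enterocyte genes 21 had an interaction call. Nativ organoids of T75 had Car1 at 0.0231 CPM, and Clu there averaged 8573 CPM against 40.7 CPM in Tamoxifen organoids. An interaction call was made for 7 of 15 smooth muscle genes and 1 of 13 enteric neuron genes. Among interferon genes 15 of 24 had one, Gbp2 with 5.95 (SE 1.20, adjusted p 0.00262), or 4.52 without gut PG_KO replicate 1. Nativ organoids summed to 574.9 to 813.9 CPM over the interferon list, above the 301.8 to 315.2 CPM of Tamoxifen organoids. Gut ctr, at 2203 to 4004 CPM, overlapped gut PG_KO. Of 12 desmosome genes 3 had an interaction call and of 13 adherens junction genes 6. Ppl was one of them, with 2.78 (SE 0.53, adjusted p 0.00189). No call was made for Dsp (0.07, SE 0.34, adjusted p 0.923), Pkp2 (-0.02, SE 0.19, adjusted p 0.976) and Pkp3 (0.27, SE 0.25, adjusted p 0.458), but Pkp3 passed without gut ctr replicate 3 (adjusted p 0.0439).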

How the data were processed

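RNA was extracted with TRIZOL and poly-A libraries were made with a TruSeq kit, per the labels' protocols. The authors deposited one table of estimated counts per gene for gut and one for organoids, and part of the values are fractions. Per the submitters' processing notes, the tools were STAR 2.7.2b and featureCounts 1.6.4, with bcl2fastq 2.20.0.422, cutadapt 2.5 and DESeq2, and the build was GRCm38.p6. Whether counting used strand is not given in the sources used here, so antisense partners and near-identical copies are uncertain. The tables were joined on gene ID and the counts rounded. Genes passing filterByExpr were tested with edgeR 4.0.16 (quasi-likelihood, robust, TMM) in R 4.3.3 on the 6 libraries, without covariates, with Benjamini-Hochberg adjustment at 0.05. The interaction used 12 libraries. CPM were computed from library totals. Where one side had 0 reads over its 3 libraries, a bound was computed with 3 reads, and with 1 to 3 reads a ratio with its exact 95% counting interval, which covers counting error only. On simulated data edgeR found 46% of 100 genes given a log2 change of 1 and 90% of 100 given a change of 2, and made 13 false calls among 17839 genes. The simulation gave both groups the same spread per gene and changed only these genes. The real groups differ in spread and in most genes, so these rates do not measure the error of this comparison. Replicates differed by more than sampling noise, with a chi-square per degree of freedom of 52.4 to 94.5 between gut libraries and 2.21 to 3.72 between organoid libraries. Alternatives were DESeq2 1.42.0, limma-voom 3.58.1, RLE factors, library totals, scaling to epithelial genes, no filter, a stricter filter, all 15 libraries, a replicate block and leaving out each library. Named genes were Jup, anchor genes marked in the 40 lists, the 10 largest differences in each direction, and up to 2 called genes per list that went against it. Members and lists were chosen with earlier results of these data known. Promoter windows came from RefSeq. Python 3.11.15 was used for joins and figures. A few genes that the rule names are not reported here.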

Additional observations from a re-analysis of the deposited data

Results flagged for a closer look

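The gut-organoid difference was not the same in the low-Jup pair and in the pair of gut ctr and nativ organoids for 6822 genes, by an edgeR interaction test of the difference itself (adjusted p at 0.05). These were 35.5% of the 19190 genes tested. Among the 241 named genes tested this held for 134. The named genes were chosen with earlier results known and include the largest gut-organoid differences, so their share cannot be read against that of all genes. Pairs differ in Jup, in the code of the organoids (T41 against T75), in Tamoxifen treatment and in the gut group, which cannot be told apart. Examples are Anxa1 with an interaction of 4.37 (SE 0.37, adjusted p 6.67e-06), Ccl25 with -5.17 (SE 0.23, adjusted p 6.07e-08) and Cdh17 with -4.83 (SE 0.36, adjusted p 2.67e-06). On leaving out each library in turn they ranged from 4.15 to 4.60, from -5.49 to -5.05 and from -5.06 to -4.62. An interaction can come from any of the groups. For the fetal-like list that holds Anxa1, the summed level was similar in the 2 gut groups, 4491 to 6268 CPM in PG_KO and 4296 to 5484 CPM in ctr. It differed between the organoids, 1491 to 1508 CPM in Tamoxifen and 14328 to 19117 CPM in nativ.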

How the results depend on the processing

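The number of genes called between gut PG_KO and Tamoxifen organoids was 12060 and ran from 10715 (a filter of 1 CPM in 3 libraries) to 13179 (no filter) over the changes of tool, scaling, filter and sample set. Leaving out each library gave 10610 to 12674, with 5887 to 6874 higher in gut and 4696 to 5800 lower. The interaction count of 6822 was 5421 under epithelial scaling and 7722 with DESeq2, and 5451 to 7638 on leaving out each library. No named gene changed sign with a call, and Jup stayed uncalled, between -0.09 and 0.18. Of 238 named genes 15 lost their call with limma-voom, 13 without a filter and 12 in the fit to all 15 libraries. Leaving out organoid replicate 1, 2 or 3 took the call from 14, 15 and 15, and leaving out gut replicate 1, 2 or 3 from 3, 9 and 4. Same-numbered gut and organoid libraries did not deviate together (correlations across genes -0.033, -0.032 and 0.003), so they share only a number. With the replicate block 11535 genes were called and 6566 for the interaction, and Jup had an adjusted p of 0.44. A count of 0 in a library allows a level of up to 0.0976 to 0.119 CPM. With 3 libraries a side, an exact permutation test of one gene cannot go below p = 0.1.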
